A study of Mus musculus with 6 samples.

Results

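Abundant transcripts with short genomic loci were taken from the authors' table of 475 genes that differed in the mouse hippocampus between the histone deacetylase inhibitor CI-994 and its vehicle. A gene belonged to the set when its vehicle value was 50 arbitrary units or more and its deposited locus was under 100 kb. Named genes of other groups, 18 in all, were left out, of which 9 met both thresholds. This left 40 of the 475 genes. All mice were C57Bl/6, 4 months old, and all had been fear conditioned to a context, re-exposed to it to recall the memory, and taken through spaced extinction sessions. The CI-994 group of 3 mice was injected daily with 30 mg/kg CI-994 and the VEH group of 3 mice with the vehicle alone. Whole hippocampi of one hemisphere were taken 1 hour after the last session, and their total RNA was sequenced. The labels name no transgene and do not state the sex of the animals.

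The table gives 1 value per gene and group, in which the authors had combined the 3 libraries. No value per mouse was analysed here, so the values below carry no replicate error, the sequencing depth is unknown, and no test across mice was made. The sources used here do not say whether the units are scaled to transcript length, so the level thresholds and bands used below compare genes only in the deposited units, and no gene is said to be more expressed than another. Directions come from the labelled group columns. The separate log2 column, headed as CI-994 against VEH, has the opposite sign in 475 of 475 genes, and every direction below turns around if the group labels were exchanged. The table holds changed genes only, so the tissue can be checked only on markers that changed. The marker lists were chosen with earlier results of these data known. Of 20 markers each, 15 of dentate granule cells and 7 of CA1, CA2 and CA3 pyramidal cells were listed, all lower in CI-994. Of 30 choroid plexus markers 28 were listed, all higher and none at 0, with a summed value of 675 units in CI-994 and 154 in VEH. The Y-linked Ddx3y was at 7.73 units in VEH and 0.0503 in CI-994, and Uty, also Y-linked, at 2.12 and 0.00821. For Xist, the RNA of the inactive X chromosome, the values were 8.46 and 25.3 units. The groups thus differed in sex-linked RNA. With 1 combined value per group, sex and treatment cannot be told apart in the values below. The part of these differences in the results below was not tested. In whole tissue, fewer cells of a type and less RNA per cell cannot be told apart.

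Histone deacetylases remove acetyl groups from histone tails, and class I enzymes, which CI-994 inhibits, are associated with reduced transcription at many promoters. Transcripts that are abundant in whole hippocampus come mostly from its principal neurons, from glia, or from the linings of the brain. Many of them encode secreted proteins, membrane proteins and signalling proteins of mature neurons. Genes with short loci need little time for the polymerase to cross them and often have few introns.

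Most of the listed abundant transcripts with short loci were lower in CI-994. Of the 40 genes 37 were lower (92.5%) and 3 were higher, namely Nefm, Sparc and D4Wsu53e. Over all listed genes 58.1% were lower and 41.9% were higher. The vehicle value chose the members and is also the denominator of the ratio, so this count is a description and no test was made. The differences were modest. The median log2 ratio of CI-994 over VEH was -0.37, beside -0.34 over all 475 genes, and the median size of the ratio regardless of sign was 0.37, beside 0.62 over the table. Among the 37 lower genes the change ran from -18.3% to -47.3% with a median of -22.8%. No member reached a 2-fold difference (0 of 40), which 24.0% of the table did. Enpp2 (log2 ratio 2.32) and C1ql2 (-2.32) met both thresholds and exceeded 2-fold, but were among the genes left out by name. A log2 ratio of at least 0.5 in size was found for 11 members, and 25 lay under 0.4. Vehicle values of the members ranged from 50.1 to 443 units with a median of 71.6, and CI-994 values from 32.3 to 307 units with a median of 57.4.

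**Figure D1:**
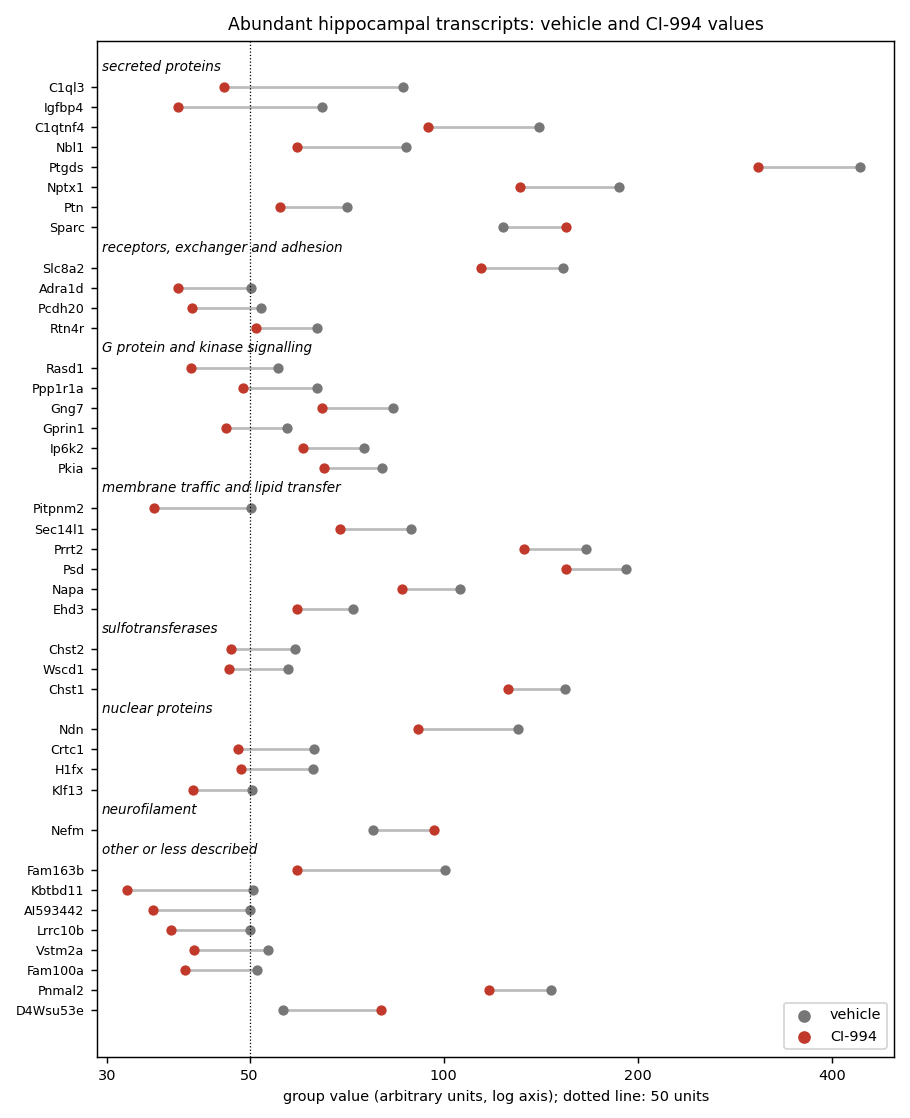
Group values of the 40 genes in arbitrary units on a log axis, grouped by role, with vehicle in grey and CI-994 in red; each point is the authors' single value for 3 combined libraries, so there are no error bars. The red point lies left of the grey point in 37 genes and right of it in Sparc, Nefm and D4Wsu53e.

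The role groups below are small and were chosen with earlier results of these data known. Since 92.5% of the 40 genes were lower, nothing is read from the count of lower genes in a group. Of 8 genes for secreted proteins 7 were lower, with log2 ratios from -0.92 to 0.32 and a median of -0.54 over the 8. C1ql3, a C1q-like protein that neurons secrete at synapses, had a value of 86.6 units in VEH and 45.6 in CI-994, a log2 ratio of -0.92. This was the largest difference of the 40 genes, and C1ql3 was also on the list of dentate granule cell markers. C1qtnf4, another secreted protein with C1q-type domains, stood at 140 units in VEH and 94.6 in CI-994 (log2 ratio -0.57). Nptx1, a neuronal pentraxin that gathers AMPA receptors at synapses, stood at 187 and 131 units (-0.51). Across these 3 genes the change ran from -29.7% for Nptx1 to -47.3% for C1ql3.

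The secreted group also held proteins of growth factor signalling. Igfbp4, which binds insulin-like growth factors and limits their access to the receptor, was at 64.7 units in VEH and 38.7 in CI-994 (log2 ratio -0.74). Nbl1, an antagonist of bone morphogenetic proteins also known as DAN, was at 87.4 and 59.2 units (-0.56). Ptn, which encodes the heparin-binding growth factor pleiotrophin, was at 70.9 and 55.8 units (-0.35). Ptgds, the lipocalin-type prostaglandin D synthase made by the meninges, choroid plexus and oligodendrocytes, had deposited values of 443 units in VEH and 307 in CI-994 (-0.53). Sparc, a matricellular protein of astrocytes and vessels, went the other way, with 124 units in VEH and 155 in CI-994 (0.32). In the authors' deposited table, p was 1.31e-09 for C1ql3, 5.25e-06 for Igfbp4, 0.000241 for C1qtnf4, 0.000448 for Ptgds, 0.000481 for Nbl1, 0.00152 for Nptx1, 0.0236 for Ptn and 0.0271 for Sparc.

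In mm9 coordinates, the deposited locus of C1ql3 runs on chromosome 2 from 12845668 to 12932491, far wider than its RefSeq gene of 8978 bases. Ptgds and C1qtnf4 also lie on chromosome 2, from 25322232 to 25325269 and from 90725943 to 90730683. Igfbp4 lies on chromosome 11 from 98902574 to 98913957, Nptx1 on chromosome 11 from 119400033 to 119409134, Sparc on chromosome 11 from 55208003 to 55233582, and Nbl1 on chromosome 4 from 138638207 to 138648885. The meningeal list, which holds Ptgds, had 4 of 17 genes in the table, with 3 lower and Igf2 higher. Its summed value was 464 units in VEH and 351 in CI-994, of which Ptgds alone gave 443 and 307. The sum thus mostly repeats Ptgds. Aldh1a2 was at 2.60 units in VEH and 1.17 in CI-994, Fmod at 3.41 and 1.54, and Igf2 at 15.8 and 41.1. The list of prostaglandin synthesis and lipocalins had 2 of 11 genes in the table, Ptgds and the inducible cyclooxygenase Ptgs2 (log2 ratio -0.55), both lower. The list of secreted matricellular and carrier proteins had 5 of 19 genes in the table, 3 lower and 2 higher. Beside Igfbp4 and Sparc these were Smoc2 (log2 ratio -0.73), Igfbp5 (-0.70) and Igfbp2 (1.24), so the insulin-like growth factor binding proteins did not share a direction. The growth factor Igf2 itself was higher (1.38). Igfbp2 was also on the choroid plexus list. In the endothelial and mural list, which holds Sparc, the only other listed gene of 18 was Vwf (-0.51).

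Promoters of 5 members with large differences and of Sparc, one of the 3 higher genes, are shown for comparison, 250 bases before to 50 after the RefSeq start site on GRCm38.p6. The 5 are a selection and not the largest differences with a promoter. Nbl1 (log2 ratio -0.56), whose promoter holds GC boxes and the CRE core described next, is not shown. Capitals mark the motifs searched, which were the cAMP response element (CRE) TGACGTCA, its core TGACG, the AP-1 site TGANTCA, the GC box GGGCGG, the CCAAT box CCAAT, the TATA box TATAAA, the E-box CACGTG, the serum response element, and the glucocorticoid response core TGTTCT. Both strands were searched, and the core lies within the full CRE. C1ql3 is at chr2:13010815-13011114 on the minus strand, Fam163b at chr2:27142428-27142727 (minus), Igfbp4 at chr11:99040994-99041293 (plus), Ptgds at chr2:25469700-25469999 (minus), Ndn at chr7:62348027-62348326 (plus) and Sparc at chr11:55420031-55420330 (minus).
C1ql3: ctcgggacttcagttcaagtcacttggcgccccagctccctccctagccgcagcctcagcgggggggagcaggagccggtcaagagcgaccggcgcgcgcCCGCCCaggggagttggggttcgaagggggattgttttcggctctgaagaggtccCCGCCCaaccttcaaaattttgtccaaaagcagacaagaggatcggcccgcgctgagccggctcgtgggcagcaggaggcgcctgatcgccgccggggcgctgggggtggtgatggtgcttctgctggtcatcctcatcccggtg
Fam163b: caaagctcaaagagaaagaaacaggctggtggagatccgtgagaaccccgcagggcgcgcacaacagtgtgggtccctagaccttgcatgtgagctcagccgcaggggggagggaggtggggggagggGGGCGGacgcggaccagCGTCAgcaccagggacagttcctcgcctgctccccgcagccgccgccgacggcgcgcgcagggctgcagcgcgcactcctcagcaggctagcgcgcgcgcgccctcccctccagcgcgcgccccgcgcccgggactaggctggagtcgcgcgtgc
Igfbp4: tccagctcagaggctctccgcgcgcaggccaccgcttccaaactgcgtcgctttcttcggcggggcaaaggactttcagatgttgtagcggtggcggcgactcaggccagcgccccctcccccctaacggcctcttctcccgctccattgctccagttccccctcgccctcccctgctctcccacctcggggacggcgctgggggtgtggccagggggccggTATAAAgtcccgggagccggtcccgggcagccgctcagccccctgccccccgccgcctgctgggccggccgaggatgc
Ptgds: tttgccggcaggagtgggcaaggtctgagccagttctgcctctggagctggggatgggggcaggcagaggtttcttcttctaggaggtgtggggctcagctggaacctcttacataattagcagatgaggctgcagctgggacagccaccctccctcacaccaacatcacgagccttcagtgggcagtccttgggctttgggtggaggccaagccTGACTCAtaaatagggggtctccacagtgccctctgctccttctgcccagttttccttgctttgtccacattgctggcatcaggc
Ndn: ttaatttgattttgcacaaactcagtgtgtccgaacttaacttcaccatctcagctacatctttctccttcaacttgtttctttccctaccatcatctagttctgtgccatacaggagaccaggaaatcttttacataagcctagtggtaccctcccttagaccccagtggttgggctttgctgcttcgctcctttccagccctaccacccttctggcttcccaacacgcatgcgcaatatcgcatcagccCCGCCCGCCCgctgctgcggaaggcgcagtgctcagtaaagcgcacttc
Sparc: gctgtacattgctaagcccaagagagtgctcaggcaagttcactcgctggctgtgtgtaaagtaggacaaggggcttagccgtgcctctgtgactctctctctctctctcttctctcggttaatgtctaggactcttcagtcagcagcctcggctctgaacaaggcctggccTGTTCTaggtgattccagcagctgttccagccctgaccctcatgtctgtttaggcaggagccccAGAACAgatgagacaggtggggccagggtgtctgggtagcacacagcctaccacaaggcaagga

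A single type of promoter did not run through these 6 sequences. C1ql3, Fam163b and Ndn held GC boxes, Igfbp4 held a TATA box 28 bases before the start site, Ptgds held an AP-1 site 35 bases before it, and Sparc held the glucocorticoid response core and no GC box. The promoter of D4Wsu53e, another higher gene, is not shown and held GC boxes, the CRE core and a CCAAT box. RefSeq promoters were found for 31 of the 40 members, of which 29 were lower in CI-994. A GC box was present in 21 of the 31 (67.7%), beside 46.3% of 17492 promoters of protein-coding genes. Their median GC content was 64.7%, beside 56.3%. The TATA box was found in 1 member, Igfbp4 (3.23%, beside 13.3%), the full CRE in 1, Napa (3.23%, beside 2.34%), and the CRE core in 8 (25.8%, beside 23.8%). The AP-1 site was found in 3 (9.68%, beside 7.08%), the CCAAT box in 10 (32.3%, beside 39.0%), the E-box in 1 (3.23%, beside 7.90%) and the glucocorticoid response core in 6 (19.4%, beside 16.4%). The serum response element was found in 0 members, beside 1.54%. These shares describe letters in the window and not binding.

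Receptors, an exchanger and an adhesion protein formed a group of 4, all lower, with a median log2 ratio of -0.36. Slc8a2, a sodium-calcium exchanger of the neuronal membrane, was at 153 units in VEH and 114 in CI-994 (-0.42). Rtn4r, the Nogo receptor that restrains axon growth, was at 63.7 and 51.1 units (-0.32). Adra1d, an alpha-1 adrenergic receptor, was at 50.2 and 38.7 units (-0.38), and Pcdh20, a protocadherin, at 52.1 and 40.8 units (-0.35).

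Signalling proteins downstream of receptors were lower in all 6 cases, with log2 ratios between -0.45 and -0.30. Rasd1, a Ras-like GTPase that glucocorticoids induce, was at 55.4 units in VEH and 40.5 in CI-994 (-0.45). Gng7, a G protein gamma subunit, was at 83.3 and 64.7 units (-0.36), and Gprin1, a G protein partner in neurite outgrowth, at 57.1 and 46.0 units (-0.31). Pkia, which blocks the catalytic subunit of the kinase, was at 80.2 and 65.1 units (-0.30). Ppp1r1a, which inhibits protein phosphatase-1 once the kinase has phosphorylated it, was at 63.6 and 48.8 units (-0.38). Its relative Ppp1r1b (DARPP-32), also a phosphatase inhibitor that this kinase phosphorylates, is one of the genes left out by name and was higher, at 37.8 and 52.0 units (0.46). Ip6k2, an inositol hexakisphosphate kinase, was at 75.1 and 60.6 units (-0.31). In the authors' deposited table p lay between 0.0105 for Gng7 and 0.0441 for Ip6k2, and 0 of the 6 had p up to 0.01, beside 49.7% of the table.

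Membrane traffic and lipid transfer were represented by 6 genes, all lower, with a median log2 ratio of -0.31. Psd, an exchange factor for the GTPase Arf6, was at 192 units in VEH and 155 in CI-994 (-0.31). Prrt2, a presynaptic membrane protein mutated in human paroxysmal movement disorders, was at 166 and 133 units (-0.32). Napa, the alpha-SNAP protein that helps take apart SNARE complexes after fusion, was at 106 and 86.0 units (-0.30). Of the remaining 3, Pitpnm2, a phosphatidylinositol transfer protein, had the largest difference, with 50.3 and 35.5 units (-0.50). Sec14l1, of the Sec14 lipid-binding family, was at 89.1 and 69.0 units (-0.37), and Ehd3, which acts in endosome recycling, at 72.4 and 59.2 units (-0.29). The fixed list of synaptic vesicle and release genes held none of these and had 2 of 22 genes in the table, Doc2b (-0.88) and Slc17a6 (-0.72), both lower. In the authors' deposited table p was 0.000596 for Pitpnm2, 0.0301 for Prrt2 and 0.047 for Psd. The deposited locus of Psd runs on chromosome 19 from 46379227 to 46401646 (22420 bases, against 16043 of its RefSeq gene). That of Prrt2 runs on chromosome 7 from 134161056 to 134164725 (both mm9).

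Sulfotransferases gave 3 lower genes. Chst1, which sulfates the galactose of keratan sulfate, was at 154 units in VEH and 126 in CI-994 (-0.29), and Chst2, which sulfates N-acetylglucosamine, at 58.8 and 46.8 units (-0.33). Wscd1, a protein with a sulfotransferase domain, was at 57.2 and 46.4 units (-0.30). These differences were smaller in size than the median of 0.37 over the 40 genes. Chst1 lies on chromosome 2 from 92439864 to 92455409 (mm9), and its p in the authors' deposited table was 0.0437.

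Nuclear proteins were lower in all 4 cases, beside 92.5% of the 40 genes. Ndn, which encodes necdin and is expressed from the paternal allele only, was at 130 units in VEH and 91.3 in CI-994 (-0.52). Crtc1, a coactivator that carries calcium and cAMP signals to the factor CREB, was at 62.9 and 47.9 units (-0.39). H1fx, a linker histone, was at 62.7 and 48.5 units (-0.37), and Klf13, a Krüppel-like transcription factor, at 50.5 and 40.9 units (-0.30). In the authors' deposited table p was 0.00103 for Ndn, 0.00682 for Crtc1, 0.0364 for Klf13 and 0.0486 for H1fx.

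The remaining 9 genes comprised a neurofilament and 8 of other or less described function, of which 7 were lower. Fam163b, a dentate granule cell marker, was at 100.3 units in VEH and 59.1 in CI-994 (-0.76), the second largest difference of the 40 genes. Kbtbd11, a kelch and BTB domain protein, was at 50.5 and 32.3 units (-0.65). Pnmal2, of the PNMA family, was at 147 and 118 units (-0.32). AI593442 (-0.50), Lrrc10b (-0.41), Vstm2a (-0.38) and Fam100a (-0.37) had vehicle values from 50.1 to 53.4 units. D4Wsu53e, listed by RefSeq as Rsrp1, was higher, at 56.2 units in VEH and 80.0 in CI-994 (0.51). Nefm, the medium neurofilament chain of large axons, was also higher, at 77.7 and 96.4 units (0.31). It was the only gene in the table from a list of 20 neuronal cytoskeleton genes, which also holds the neurofilament genes Nefl, Nefh and Ina. In the authors' deposited table p was 2.72e-07 for Fam163b, 8.28e-06 for Kbtbd11, 0.00181 for D4Wsu53e and 0.0337 for Nefm. Fam163b lies on chromosome 2 from 26965899 to 26997997, Kbtbd11 on chromosome 8 from 15011025 to 15033332 and Ndn on chromosome 7 from 69493163 to 69494813 (mm9).

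The members with the strongest differences included dentate granule cell markers. C1ql3 and Fam163b, both on that list, ranked first and second of the 40. C1ql2, also on that list, met both thresholds with a log2 ratio of -2.32, but was left out by name. The whole list had 15 of 20 genes in the table, all lower, with a median log2 ratio of -0.87 and a summed value of 454 units in VEH and 238 in CI-994. Of these sums, C1ql3 gave 86.6 and 45.6 units and Fam163b 100.3 and 59.1. The list was chosen with earlier results of these data known, so it is no independent support for either gene. None of these 15 was at 0 in either group. The other 38 members were on no list of dentate, pyramidal or interneuron markers. The pyramidal markers Wfs1, Bok and Pcp4 met both thresholds but, like C1ql2, were left out by name. Nothing is therefore read from this absence. The part of the dentate difference in the values of C1ql3 and Fam163b was not tested.

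Deposited p-values followed the size of the ratio closely but not fully. Among the 40 members 9 had p up to 0.001 in the authors' deposited table, beside 25.9% of all listed genes, and 15 had p up to 0.01, beside 49.7%. The vehicle value chose the members in this same contrast, so nothing is read from these shares. The 9 genes had log2 ratios from 0.50 to 0.92 in size. For 21 members p in the authors' deposited table lay above 0.02, with log2 ratios from 0.29 to 0.45 in size. Rasd1 departed from the others. Its p in the authors' deposited table was 0.0294 at a log2 ratio of -0.45, while Slc8a2 had 0.00551 at -0.42. Likewise, Gng7 had a p of 0.0105 and H1fx one of 0.0486 in the authors' deposited table, at log2 ratios of -0.36 and -0.37. The header does not call these p-values adjusted, and the sources used here do not say how many genes were tested.

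**Figure D2:**
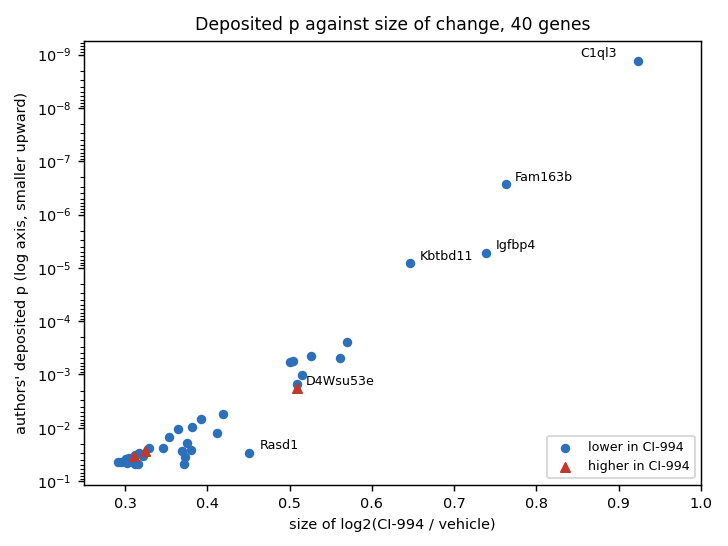
The p of the authors' deposited table (vertical log axis, smaller values upward) against the size of the log2 ratio of CI-994 over VEH for the 40 genes, blue where lower and red triangles where higher in CI-994. Rasd1 lies apart at a ratio of 0.45 in size with p = 0.0294, and C1ql3 stands at the far end with p = 1.31e-09 in the authors' deposited table.

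By vehicle value, the share of lower genes was greater in each higher band up to 100 units. Among genes with loci under 100 kb and outside the named exceptions, 0% were lower below 1 unit of vehicle value, 31% from 1 to 5 units, 55.7% from 5 to 20, 74.1% from 20 to 50, 92.9% from 50 to 100 and 91.7% at 100 units or more. The vehicle value enters both the band and the ratio. The listed choroid plexus markers other than Enpp2 were all higher, with vehicle values from 0.223 units (Tmem72) to 21.5 (Igfbp2). Their part in the shares of the lower bands was not tested. Banded by the geometric mean of both groups, the shares were 20%, 32.2%, 50.9%, 73.0%, 81.8% and 90%. Banded by the CI-994 value, they were 100%, 38.7%, 41.2%, 69.3%, 63.2% and 87.5%, with 9 genes in the lowest band. With a CI-994 value of 50 units or more in place of the vehicle threshold, 19 of 27 genes were lower (70.4%). The 5 genes that entered in this way were all higher, Igfbp2, Snhg11, Meg3, Arc and Pcp4l1 (named after their values were seen), and 18 members left. Of the 22 members at 50 units or more in both groups, 19 were lower. The smallest ratio listed was 0.39 in size between 1 and 5 units of vehicle value and 0.29 between 50 and 100 units.

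**Figure D3:**
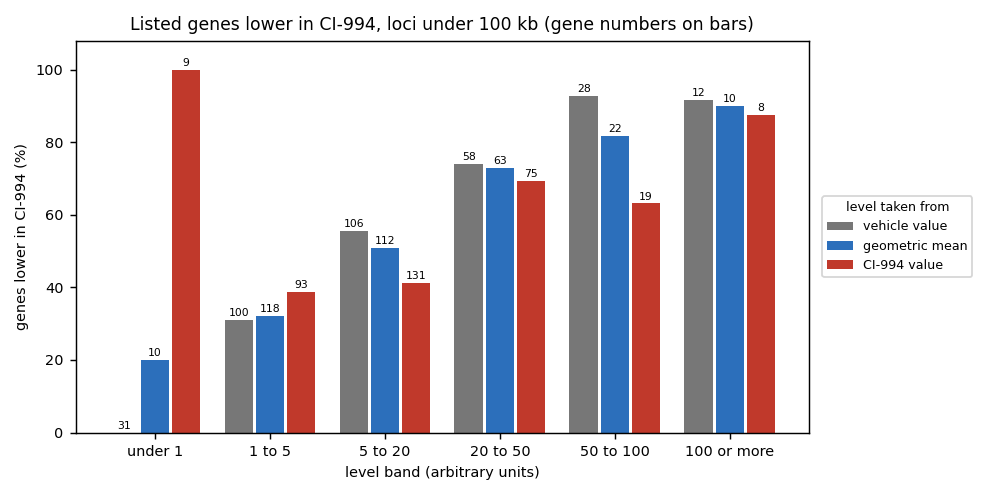
Percentage of listed genes with loci under 100 kb that were lower in CI-994, by level band in arbitrary units, with the level taken from the vehicle value (grey), the geometric mean (blue) or the CI-994 value (red); numbers on the bars count genes. At 50 to 100 units the share is 92.9% by the vehicle value, 81.8% by the geometric mean and 63.2% by the CI-994 value.

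**Figure D4:**
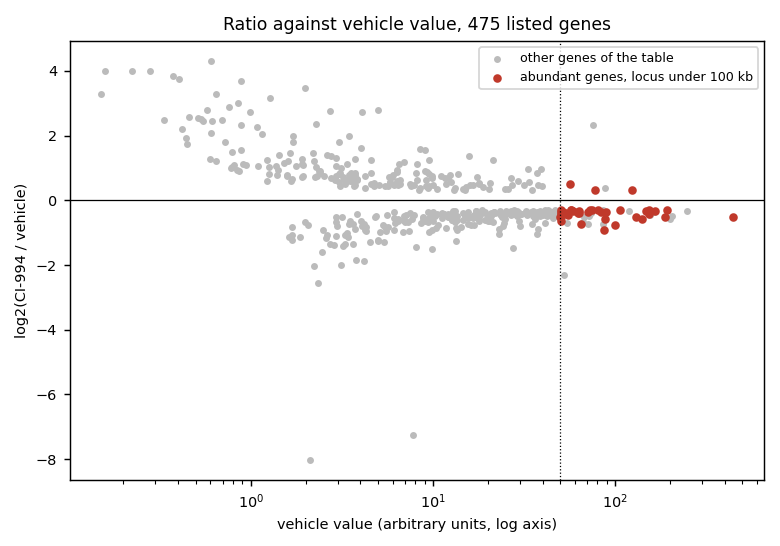
The log2 ratio of CI-994 over VEH against the vehicle value in arbitrary units (log axis) for the 475 listed genes, with the 40 abundant genes with loci under 100 kb in red and the threshold of 50 units dotted. The red points lie between -0.92 and 0.51, with 37 of the 40 below 0.

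Genes next to the thresholds, on both sides, were all lower in CI-994. Just inside the vehicle threshold were AI593442, Lrrc10b and Adra1d at 50.1 to 50.2 units, with log2 ratios of -0.50, -0.41 and -0.38. Just outside were Fam84a at 47.9, Aqp4 at 47.2 and Dagla at 46.9 units, with log2 ratios of -0.39, -0.34 and -0.31. Just inside the locus limit were Pitpnm2 (97.7 kb, log2 ratio -0.50), Ptn (95.7 kb, -0.35) and C1ql3 (86.8 kb, -0.92). Just outside were Adcy1 (115 kb, -0.45), Gabra5 (123 kb, -0.33) and Sphkap (152 kb, -0.40), all smaller in size than C1ql3. All 12 genes with a vehicle value of 50 units or more and a locus of 100 kb or more were lower, with a median log2 ratio of -0.43. Of the 9 genes left out by name that met both thresholds 7 were lower and 2 higher. The 7 were C1ql2 (log2 ratio -2.32), Wfs1 (-0.74), Bok (-0.67), Pcp4 (-0.59), Bhlhe40 (-0.42), Cacng8 (-0.34) and Camk2n1 (-0.32). The 2 higher genes were Enpp2 (2.32) and Gap43 (0.37). Among the 303 genes with short loci and vehicle values under 50 units 46.2% were lower.

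Locus lengths of the members ran from 1.06 kb for H1fx to 97.7 kb, with a median of 16.1 kb and 15 loci under 10 kb. For 31 of the 40 the locus was within 10% of the length of the RefSeq gene. For 1 member, Pitpnm2, the RefSeq gene (131222 bases) was above the 100 kb limit. Of the abundant genes with longer deposited loci, 1 had a RefSeq gene under 100 kb. The deposited locus was more than 1.5 times as long as the RefSeq gene for 2 members, and these were C1ql3 and Rasd1. The C1ql3 locus spanned 86.8 kb and the gene 8.98 kb. The neighbouring gene Pter overlaps C1ql3 by 1568 bases in RefSeq, and both genes together span 86828 bases, against 86824 bases of the deposited locus. Rasd1 overlaps Med9 by 126 bases, the pair spans 16731 bases and the deposited locus 16729. In length, the deposited loci of C1ql3 and Rasd1 thus match the joint span with a neighbour to within 4 and 2 bases. Neither Pter nor Med9 was among the genes in the table, and the sources used here do not say whether strand was used in counting, so reads of the overlaps cannot be told apart. Exons of 6 members (Adra1d, C1ql3, H1fx, Kbtbd11, Nefm and Psd) overlap another gene on the opposite strand in GENCODE M21, for Nefm the neurofilament gene Nefl and for Psd the gene Nfkb2. In RefSeq, Klf13, Prrt2, Psd and Rtn4r also overlap another coding gene. All these values are uncertain to that extent.

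**Figure D5:**
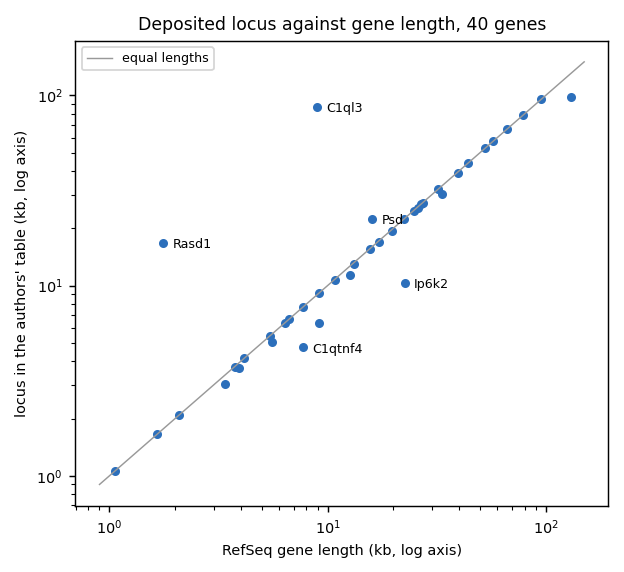
Length of the deposited locus against the length of the RefSeq gene in kb, both on log axes, for the 40 genes, with a line of equal lengths. C1ql3 (86.8 against 8.98 kb) and Rasd1 lie far above the line, and Ip6k2 and C1qtnf4 lie below it.

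Many members had few exons. In GENCODE M21, 4 of the 40 had a single exon, H1fx, Lrrc10b, Ndn and Pnmal2 (10%, beside 3.24% of the 463 listed genes with a coding transcript and 7.11% of all coding genes). At most 2 exons were found in 14 members (35%, beside 12.3% and 16.8%). The locus limit favours such genes, so this share is a description. Proteins of the members had a median of 328 residues, beside 489 in the table and 389 over all coding genes. Their lengths ran from 68 for Gng7 to 1334 for Pitpnm2. The members lay on 16 chromosomes, with 7 on chromosome 11 and 6 each on chromosomes 2 and 7. Of all 475 listed genes, 36 lay on chromosome 11, 36 on chromosome 2 and 32 on chromosome 7. Napa and Slc8a2 were the closest pair, 12.3 kb apart on chromosome 7 with no other listed gene between them, and Pnmal2 followed 784 kb further on. All 3 were lower, beside 92.5% of the 40 genes, with log2 ratios of -0.30, -0.42 and -0.32. In mm9, Napa spans 16683992 to 16703324 and Slc8a2 16715649 to 16745860.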

How the data were processed

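Gene expression was measured by RNA sequencing of total RNA from 6 hippocampi, 3 per group. TopHat and Cuffdiff were used with mm9, per the submitters' processing notes. The sources used here give no versions, annotation, normalisation or filters. The authors deposited a normalised expression signal in arbitrary units, 1 value per group, per the file headers. They also deposited a log2 ratio and a p-value per gene, all p-values below 0.05. After a turn of sign, the deposited log2 column equals the log2 ratio of CI-994 over VEH within 0.0001.

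Ratios were computed without a pseudocount. Genes were compared by counts and medians only, in Python 3.11.15 (pandas 2.3.3, numpy 2.4.6), with plots in matplotlib 3.10.9. All 40 members are named, with the 3 genes on each side of each threshold. The 8 with the largest ratios and the 5 with the highest vehicle values are given with locus and p. Members, lists and role groups were chosen with earlier results of these data known. In the table, end minus start equals the RefSeq gene length in 121 genes, and end minus start plus 1 does in 19, so starts were taken as counted from 0 and are printed counted from 1. RefSeq symbols and promoters (GRCm38.p6) matched 40 and 31 members, 3 symbols through an older name. Exon counts and protein lengths come from the longest coding transcript in GENCODE M21, motifs from the first listed promoter. Alternatives changed the thresholds, the group that sets the level, the p-value, a pseudocount of 1 and the reading of the log2 header.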

Additional observations from a re-analysis of the deposited data

How the results depend on the processing

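The share of lower genes was 92.5% and the median log2 ratio -0.37. Values moved under 3 settings. With a CI-994 value of 50 units or more in place of the vehicle threshold, the share was 70.4% and the median -0.31, since 5 higher genes entered and 18 lower ones left. With p up to 0.01 in the authors' deposited table the median was -0.52 and the share 93.3% (14 of 15), because only the larger ratios pass. With the sign of the log2 column taken from its header, directions turn by construction, to 7.5% lower and a median of 0.37. Vehicle thresholds of 25 and 100 units, a geometric mean of 50 units, loci under 50 kb or of any length, the named genes kept, and a pseudocount of 1 gave shares from 83.7% to 94.1%. So did both values at 50 units and leaving out the 6 genes with overlapping exons, while either value at 50 units gave 82.2%. These last 3 settings were chosen after seeing the data, as was the use of any listed promoter, which left the GC box share at 67.7%. No paired analysis was possible because each group has 1 combined value, and no mouse could be left out for the same reason. Depth is unknown, so the precision of single values cannot be stated.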
